A study of Rattus norvegicus with 6 samples.

Results

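Chromosome 4 carried 7644 of the 159452 peaks in the authors' annotated table from PC12 cells that express α1ACT. It had the lowest peak density of the 20 rat autosomes. The peaks, every entry of that table on chromosome 4, were taken whole, and they were set beside the 142394 peaks of the other 19 autosomes. The chromosome was chosen by its measured density of 30.8 peaks per Mb. The next lowest density was the 39.5 peaks per Mb of chromosome 5, so both values are descriptions and neither is tested.

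The study used chromatin immunoprecipitation and sequencing (ChIP-seq) to find where α1ACT lies on chromatin. PC12, a rat tumour line derived from the neural crest (pheochromocytoma), stably expressed human α1ACT in 1 line, titled Q11 in the labels, and carried the empty pCDNA3 vector in the other. Each line gave 1 library with an antibody labelled 1804, 1 with M2, an anti-FLAG antibody, and 1 input, at passages 18 to 20 and after crosslinking in 1% formaldehyde for 10 min. On chromosome 4 the annotated table holds peaks of the α1ACT 1804 library, none of which overlapped an empty-vector peak. Over all chromosomes the α1ACT 1804 list held 161730 peaks and the α1ACT M2 list 81. The empty-vector lists held 272 with 1804 and 244 with M2, so they could overlap only a small part of the table. All 3 α1ACT M2 peaks on chromosome 4 lay at sites that both empty-vector lists share. No chromosome 4 peak of the annotated table was thus also called with M2. The labels do not say what 1804 recognises or how many clones a line stands for. With 1 library in each group, no value below has a replicate error, no p-value is given, and the read depth behind the peaks is unknown.

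α1ACT is a transcription factor translated from within the transcript of CACNA1A, the gene whose main product is the pore of the P/Q-type calcium channel. A transcription factor binds near transcription start sites (TSSs), where RNA polymerase begins a gene, and at sites far from any gene, which can act on a gene at a distance. TSSs of widely active genes in mammals usually lie in CpG islands, stretches rich in G, C and the CG dinucleotide. Rat chromosome 4 carries the Hox A cluster, large clusters of vomeronasal receptor genes, the natural killer receptor genes and long neural genes such as Cntn3 and Magi2. Human α1ACT has been reported to act on Atp2b2, a plasma membrane calcium pump gene that also lies on this chromosome.

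The promoters printed here are those of 3 chromosome 4 genes with a high peak at the TSS and of 1 gene with many assigned peaks and none within 1000 bp of the TSS, to show how their sequence differed. Each runs from 250 bases before to 50 bases after the TSS in RefSeq on the rat build GRCr8, 5′ to 3′ on the strand of the gene, with every CG dinucleotide in capitals. The peak coordinates further down are on another build, rn5, and are not to be matched to these positions. The promoter of Ahcyl2 is chr4:59348497-59348796 on the plus strand, that of ST7 chr4:47007968-47008267 on the plus strand, that of Mtpn chr4:65153754-65154053 on the minus strand and that of Ndufa4 chr4:40975510-40975809 on the minus strand.
Ahcyl2: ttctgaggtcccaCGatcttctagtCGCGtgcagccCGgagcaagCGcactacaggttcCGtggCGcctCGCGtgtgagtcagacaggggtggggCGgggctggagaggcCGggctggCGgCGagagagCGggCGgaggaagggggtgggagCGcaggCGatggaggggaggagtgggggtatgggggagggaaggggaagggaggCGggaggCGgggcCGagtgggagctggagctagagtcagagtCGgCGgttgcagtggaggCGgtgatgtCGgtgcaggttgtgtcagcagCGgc
ST7: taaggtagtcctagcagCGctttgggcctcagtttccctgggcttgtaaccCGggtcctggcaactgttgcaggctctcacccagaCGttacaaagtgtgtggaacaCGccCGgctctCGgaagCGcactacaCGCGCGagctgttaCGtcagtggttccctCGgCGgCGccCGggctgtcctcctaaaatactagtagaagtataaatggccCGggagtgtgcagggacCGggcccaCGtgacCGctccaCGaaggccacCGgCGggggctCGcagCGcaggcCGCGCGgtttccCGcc
Mtpn: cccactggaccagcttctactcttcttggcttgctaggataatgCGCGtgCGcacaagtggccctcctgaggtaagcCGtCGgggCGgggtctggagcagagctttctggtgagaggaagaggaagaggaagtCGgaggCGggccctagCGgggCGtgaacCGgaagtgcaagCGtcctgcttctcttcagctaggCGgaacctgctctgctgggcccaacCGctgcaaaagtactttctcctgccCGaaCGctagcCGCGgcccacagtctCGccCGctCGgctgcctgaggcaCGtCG
Ndufa4: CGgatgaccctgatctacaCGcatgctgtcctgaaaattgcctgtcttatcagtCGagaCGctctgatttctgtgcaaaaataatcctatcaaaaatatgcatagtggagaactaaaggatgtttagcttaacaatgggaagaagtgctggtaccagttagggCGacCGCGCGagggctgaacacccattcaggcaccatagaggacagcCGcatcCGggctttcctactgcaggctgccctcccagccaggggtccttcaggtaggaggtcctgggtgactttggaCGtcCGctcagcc

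Ahcyl2, related to the enzyme that splits adenosylhomocysteine, ST7 and Mtpn (myotrophin) had peaks at the TSS with signals of 14.9, 14.7 and 11.2, where signal is the authors' own height value for a peak. Ndufa4, a component of the mitochondrial respiratory chain, was assigned 114 peaks and none within 1000 bp of its TSS. The 300 bases held 25 CG dinucleotides in Ahcyl2, 28 in ST7, 23 in Mtpn and 12 in Ndufa4, and their G and C content was 69.3%, 63.7%, 63.3% and 52.7%. The GC box, the letters GGGCGG on either strand, was found in the windows of Ahcyl2 and Mtpn and not in those of ST7 and Ndufa4. The window of ST7 held the TATAAA letters and a CACGTG E-box.

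The low density of chromosome 4 was uneven along its length. The chromosome held 4.79% of all peaks in the table and 5.09% of autosomal peaks, against 9.04% of autosomal length, where length was counted to the highest peak end in any list (248 Mb for chromosome 4). Its density was 30.8 peaks per Mb (exact 95% Poisson interval 30.1 to 31.5), against a median of 55.1 over the other autosomes, which ran from 39.5 on chromosome 5 and 45.6 on chromosome 17 to 66.0 on chromosome 1. A single stretch without any peak, from 67963067 to 133162422 on rn5, took up 65.2 Mb, or 26.3% of the chromosome. It held 0 peaks of the α1ACT 1804, α1ACT M2, empty-vector 1804 and empty-vector M2 lists. All 65 empty windows of 1 Mb among the 249 of chromosome 4 lay in this stretch. Of the other autosomes, 12 also had a stretch of 1 Mb or more, the longest being 19.6 Mb on chromosome 2, and the other autosomes together had 75.0 Mb.

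The genes on both sides of the stretch place it on the map. Its left edge was a peak from 67963011 to 67963066 with a signal of 3.63, assigned to Tmem178b, a transmembrane protein gene that lies from 67476252 to 67864206. Its right edge was a peak from 133162423 to 133162478 with a signal of 3.18, assigned to Prss37, a serine protease family gene from 133126537 to 133140428 that lies in the last bases of the stretch. In the gene order of GRCr8, only 7 genes, 6 of them protein-coding, stand between Tmem178b and Prss37. The annotated table held 3 of these, Agk, Dennd11 and Ssbp1, and all 3 lay to the right of Prss37 on rn5. Agk, a mitochondrial lipid kinase gene, had a peak within 1000 bp of its TSS with a signal of 9.49, and Ssbp1, a mitochondrial single-stranded DNA binding protein gene, had such a peak with a signal of 8.65. No long run of genes thus stands between these flanks on GRCr8. The rn5 sequence inside the stretch was not analysed here, and its part in the low density was measured only by leaving the stretch out.

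Leaving out the stretches of every autosome, a setting chosen after seeing the data, chromosome 4 had 41.7 peaks per Mb over 183 Mb (40.8 to 42.7) and was no longer the lowest. Chromosome 5 had 40.7 peaks per Mb, chromosome 17 had 46.9, and the median of the other autosomes was 57.3, with a maximum of 70.0 on chromosome 19. The name of sparsest chromosome thus holds over the whole length only. The intervals of chromosome 4 and chromosome 5 overlap, and every interval given here allows for counting error alone, as peaks side by side are not independent. Peaks below the median signal of the table stood at 22.6 per Mb on chromosome 4 outside the stretch, the lowest of the 20 autosomes. Chromosome 5 had 23.2, and the median of the other autosomes was 27.3. Peaks in the upper 10% of signal, at or above 5.28, stood at 3.00 per Mb, against 2.42 on chromosome 5 and a median of 5.84.

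**Figure D1:**
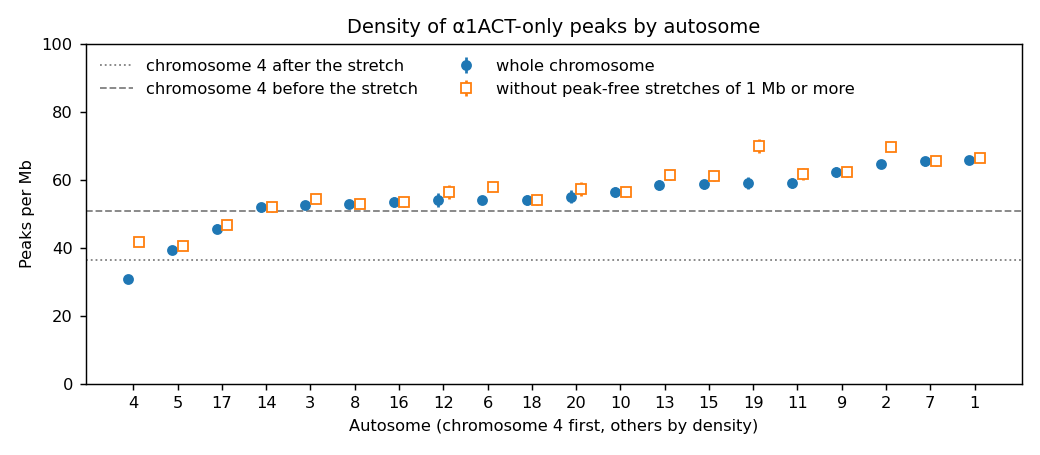
Peaks per Mb on each autosome, counted over the whole length and without peak-free stretches of 1 Mb or more, with exact 95% Poisson intervals as bars and lines for the parts of chromosome 4 before and after its stretch. Chromosome 4 has 30.8 peaks per Mb over its whole length and 41.7 without the stretch, chromosome 5 has 39.5 and 40.7, and the part after the stretch lies at 36.4.

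The parts on either side of the stretch differed. The part before it, 68.0 Mb long, had 3446 peaks and 50.7 peaks per Mb (49.0 to 52.4), and only chromosomes 5 and 17 were sparser outside their stretches. The part after it, 115 Mb long, had 4198 peaks and 36.4 peaks per Mb (35.4 to 37.6), below every other autosome counted whole outside its stretches. Parts of like length on the other autosomes were not measured. The 10 Mb of chromosome 5 from 150000001 to 160000000 had 18.3 peaks per Mb. The density before the stretch was 1.39 times that after it. For peaks below the median signal the ratio was 1.26, from 26.0 peaks per Mb before the stretch and 20.6 after it. For peaks in the upper 10% of signal it was 1.79, from 4.15 before and 2.32 after. The split followed the stretch and was chosen after seeing the data.

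Neighbouring peaks also lay differently in the 2 parts. The median distance from a peak to the next was 6.51 kb before the stretch and 3.07 kb after it, although the part after it was the sparser. Gaps of more than 100 kb made up 2.58% of the distances before the stretch and 7.41% of those after it. On the other autosomes they made up 1.89% to 6.28%, the highest on chromosome 5. Neighbours within 1 kb made up 30.1% before the stretch and 36.5% after it. Compared with those before it, the peaks after the stretch were thus both more tightly grouped and further apart between groups. In close spacing the part after the stretch was near the other autosomes, whose medians were 2.95 kb and 35.3% within 1 kb. Their share within 1 kb ran from 19.8% to 38.5%. Chromosome 5 had a median distance of 2.27 kb, with 38.3% within 1 kb and 6.28% over 100 kb. Chromosome 4 as a whole had a median distance of 4.68 kb, within the 1.93 to 7.66 kb of the other autosomes.

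**Figure D2:**
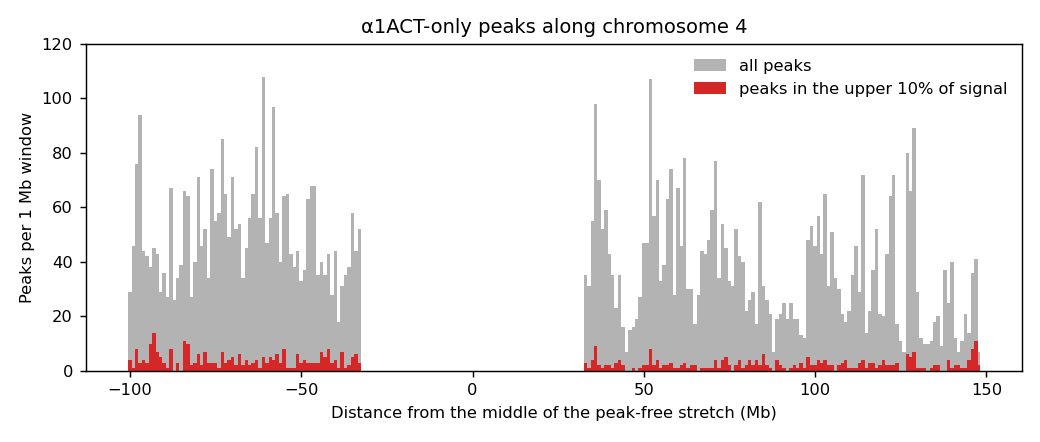
Peaks in each 1 Mb window of chromosome 4, plotted by distance in Mb from the middle of the peak-free stretch, with peaks in the upper 10% of signal in red. The 184 windows that hold peaks run from 7 to 108 peaks with a median of 39.5, and the windows after the stretch reach lower values than those before it.

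By windows of 1 Mb, 184 of 249 held at least 1 peak, with a median of 39.5 peaks, quartiles of 26 and 55.25 and a range of 7 to 108. The median window had 45.5 peaks before the stretch and 31 after it. Fewer than 20 peaks were found in 31 filled windows, of which 1 lay before the stretch and 30 after it. No peak near a TSS, meaning within 1000 bp, was found in 94 filled windows, 29 of the 68 before the stretch and 65 of the 116 after it.

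The densest window lay from 39000001 to 40000000 and held 108 peaks, 44 of them assigned to Tmem106b, a lysosomal membrane protein gene. The next, from 152000001 to 153000000, held 107, and all 107 were assigned to genes of receptor families, led by the vomeronasal receptor gene Vom1r72 with 11. The window from 136000001 to 137000000 held 98 peaks, led by the olfactory receptor gene Olr806 with 17. Cftr, the chloride channel gene of cystic fibrosis, led the window from 42000001 to 43000000 with 53 of 97 peaks. Paxip1, which encodes a DNA damage response protein, led the window from 3000001 to 4000000 with 59 of 94. These 5 windows held 9 peaks near a TSS in all. The sparsest filled windows had 7 peaks each and all 5 lay after the stretch. Nfe2l3, Adamts9, Rhno1, Sox5 and Bicd1 led them with 3 to 7 peaks, and none of these 5 windows held a peak near a TSS. The window led by Bicd1 is the incomplete last window of the chromosome.

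The 16 whole steps outside the stretch held 181 to 623 peaks with a median of 440.5, against 183 to 1407 with a median of 541 for the 223 such steps of the other autosomes. Of the 16, 9 lay below the lower quartile of the other autosomes (461 peaks), 2 of 6 before the stretch and 7 of 10 after it. Above their median lay 3 steps before the stretch and 1 after it, and 0 of 16 lay above their upper quartile of 685. The fullest step, from 30000001 to 40000000, ran from Ppp1r9a onwards with 623 peaks, of which 1.77% were near a TSS. The emptiest, from 230000001 to 240000000, ended at Slco1b2 with 181 peaks, of which 2.76% were near a TSS. The highest share near a TSS, 9.23% of 260 peaks, was found from 180000001 to 190000000, between Nagk and Ccdc174, and the lowest, 0.708% of 565 peaks, from 150000001 to 160000000, between Crhr2 and Atoh1.

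The next longest gaps of the table on chromosome 4 were far shorter. A gap of 698 kb from 144929526 to 145627489 lay between peaks assigned to Cycs, the cytochrome c gene, and to the microRNA gene Mir148a. It was not free of signal, since it held the site at 145459432 that all 4 lists share. A gap of 541 kb from 192515460 to 193056783 lay between peaks that were both assigned to Suclg2, a gene of the citric acid cycle.

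Chromosome 4 peaks were less often at promoters and more often in introns than those of the other autosomes, in the feature classes of the authors' table. Promoter peaks, up to 3 kb from the TSS, made up 5.17% (95% Clopper-Pearson interval 4.68 to 5.69) on chromosome 4 and 8.19% (8.05 to 8.34) on the other autosomes. This promoter share was only the 5th lowest of the 20 autosomes, with chromosome 5 at 3.89% and chromosome 2 at 4.34%. Intron peaks made up 20.7% (19.8 to 21.6) on chromosome 4, the second highest share of the 20 autosomes, and 16.5% (16.3 to 16.7) on the others. Exon peaks made up 0.340% (0.222 to 0.498), which was 26 peaks, on chromosome 4 and 0.999% (0.948 to 1.05) on the other autosomes. Chromosome 2 with 0.260% and chromosome 5 with 0.329% had lower exon shares. Distal intergenic peaks made up 73.3% (72.3 to 74.3) on chromosome 4 and 73.6% (73.4 to 73.9) on the other autosomes, and these intervals overlap. Of the rarer classes, chromosome 4 had 1 peak in a 5′ UTR, 12 in a 3′ UTR and 25 just downstream of a gene. The part before the stretch had 71.0% distal intergenic peaks and the part after it 75.3%.

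Within 1000 bp of a TSS lay 266 peaks of chromosome 4, or 3.48% (3.08 to 3.92), against 6.18% (6.05 to 6.30) on the other autosomes. Chromosome 5 with 2.94% and chromosome 2 with 3.45% were lower, and chromosome 10 was highest with 16.0%. The share was 4.15% (3.51 to 4.87; 143 peaks) before the stretch and 2.93% (2.44 to 3.49; 123 peaks) after it. Of the 266 peaks near a TSS, 178, or 66.9% (60.9 to 72.5), lay over it or downstream, against 66.7% (65.7 to 67.7) on the other autosomes. The 200 bp just downstream held 35.3% of them on chromosome 4, against 30.8% on the other autosomes, and the 200 bp just upstream 19.5%, against 14.3%.

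Signal was low on chromosome 4 as well. Its median was 2.96 with quartiles of 2.44 and 3.75, the second lowest of the 20 autosomes. The median was 2.83 on chromosome 5 and highest, at 3.21, on chromosome 10. The upper 10% of signal took 549 peaks, or 7.18%, of chromosome 4. Before the stretch the median signal was 3.00 and 8.18% of peaks (7.29 to 9.15) were in the upper 10%, and after it these values were 2.84 and 6.36% (5.64 to 7.14). The median was 4.20 for peaks near a TSS, with a range of 2.04 to 14.9, and 2.94 for the others.

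The share near a TSS was lower on chromosome 4 at every level of signal. When all peaks of the table were put into 10 bins of equal size by signal, the chromosome 4 share was below that of the other autosomes in 10 of 10 bins, and the intervals were apart in 5. In the highest bin 95 of 549 peaks were near a TSS, or 17.3% (14.2 to 20.7), against 22.0% (21.3 to 22.7) on the other autosomes. Taken singly, some autosomes were lower in this bin: chromosome 4 ranked 5th lowest, and chromosome 5 was lowest with 11.5%. In the lowest bin 8 of 796 were, or 1.01% (0.435 to 1.97), against 3.93% (3.60 to 4.29).

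**Figure D3:**
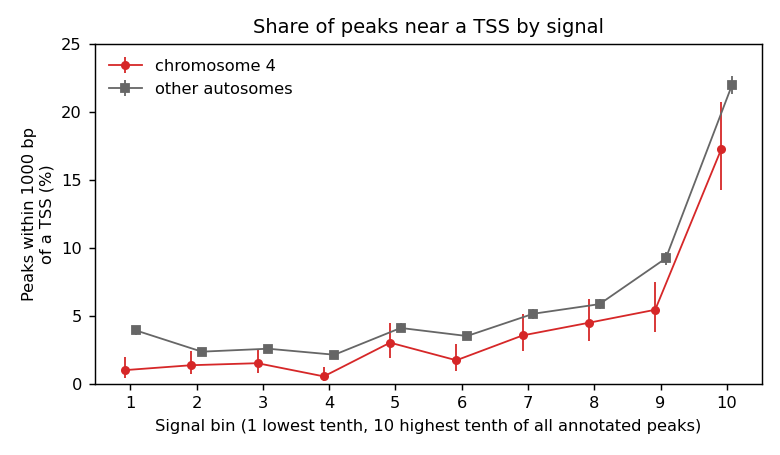
Share of peaks within 1000 bp of a TSS in 10 bins of rising signal, for chromosome 4 and the other autosomes, with exact 95% intervals. The chromosome 4 share is the lower in each bin and reaches 17.3% in the highest bin, against 22.0% on the other autosomes.

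Fewer genes of chromosome 4 than of any other autosome, as a share of those listed, had a peak at the TSS. The table assigned chromosome 4 peaks to 824 genes, and 205 of them, or 24.9% (22.0 to 28.0), had a peak near the TSS. Over all 13993 autosomal genes of the table this share was 43.9%, and over the 13169 genes of the other autosomes it was 45.1% (44.2 to 45.9). Chromosome 4 had the lowest share of the 20 autosomes, followed by chromosome 5 with 27.1% and chromosome 17 with 35.3%. A gene enters the table only with an assigned peak, so genes without any are not in these shares. The number of listed genes was not low: 4.50 per Mb outside the stretch, against a median of 4.55 on the other autosomes.

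The share was lower after the stretch. Before the stretch 101 of 269 genes had a peak near the TSS, or 37.5% (31.7 to 43.6), and after it 104 of 555 had one, or 18.7% (15.6 to 22.2). Clusters of receptor genes were more common there as well. Vomeronasal, olfactory, taste and lectin-like receptor genes made up 16.6% of listed genes on chromosome 4 and 7.16% on the other autosomes, and 6.32% before and 21.6% after the stretch. Without these families, a setting chosen after seeing the data, 29.3% of 687 chromosome 4 genes (25.9 to 32.8) and 48.1% of the genes of the other autosomes had a peak near the TSS. Chromosome 5, at 27.7%, was then lower. The shares without the families were 40.1% before the stretch (34.0 to 46.4) and 23.0% after it (19.1 to 27.2).

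**Figure D4:**
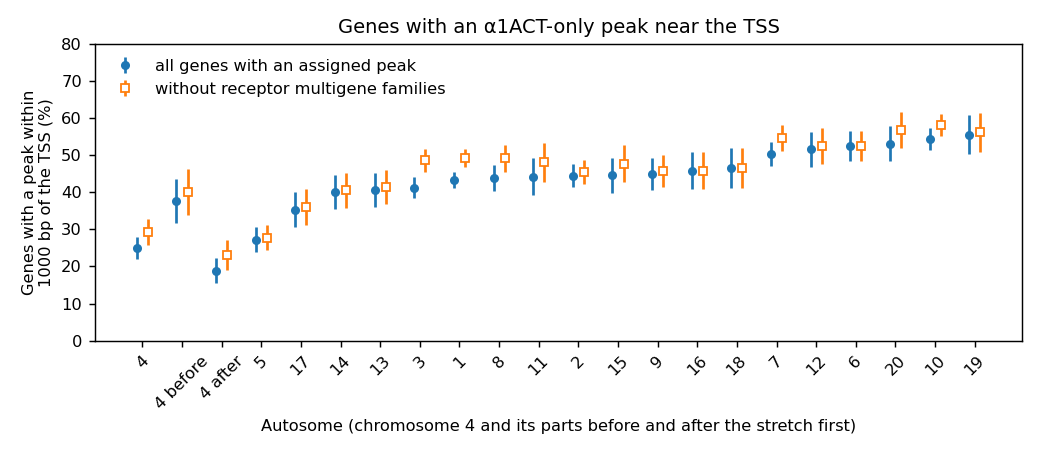
Share of listed genes with a peak within 1000 bp of the TSS, for chromosome 4, its parts before and after the stretch and each other autosome, for all genes and without receptor families, with exact 95% intervals as bars. Chromosome 4 has 24.9% with all genes and 29.3% without the families, and its part after the stretch has 18.7% and 23.0%.

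Among the 205 genes, 154 had 1 peak near the TSS, 43 had 2 and 8 had 3 or more. Cacna2d1, an auxiliary subunit of voltage-gated calcium channels, and Zc3hav1, an antiviral zinc finger protein gene, had 4 each. Cdk6, Kmt2e, Luc7l2, Rnf32, Tlx2 and Ubn2 had 3 each. Of these 8 genes, 7 lay before the stretch and Tlx2, a homeobox gene, lay after it. The 4 peaks of Cacna2d1 spanned 898 bp around 2 annotated TSSs and had signals of 12.6, 3.69, 6.83 and 3.75. Those of Zc3hav1 had 6.73, 6.66, 2.57 and 4.09.

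The 10 genes with the highest peak near the TSS lay mostly before the stretch, with 8 of 10 there. Of the 30 highest, 21 lay there, against 101 of all 205 genes with a peak near the TSS. The count depends on the cut, since Eefsec with 10.18 and Ccdc91 with 10.11, both after the stretch, came just below the 10th gene, Wasl, with 10.19. Ahcyl2 led with 14.9, in a peak over the TSS from 56817361 to 56817416. ST7 had a peak of 14.7 from 45604682 to 45604737, with its farther edge 132 bp upstream of the TSS, and a second of 2.81. Gapdh, the glycolytic enzyme gene, had a peak of 13.6 from 224697063 to 224697118, 334 bp downstream of the TSS. Reads of Gapdh can be shared with its many near-identical copies in the rat genome, so its value is uncertain.

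Rundc3b had 13.4 in a peak 156 bp downstream of the TSS, and 3.52 in a second upstream. Dmtf1, a cyclin D binding transcription factor gene, had 12.5 at 210 bp downstream. Med21, a gene of the Mediator complex that bridges transcription factors and RNA polymerase, had 12.4 at 238 bp downstream and lay after the stretch. Mtpn had 11.2 and 6.56 in peaks on both sides of its TSS. Dnajc2, a ribosome-associated chaperone gene, had 10.6, and Wasl, a gene for an activator of actin branching, had 10.2. Dnajc2, Wasl and Gapdh each had this peak as their only one.

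**Figure D5:**
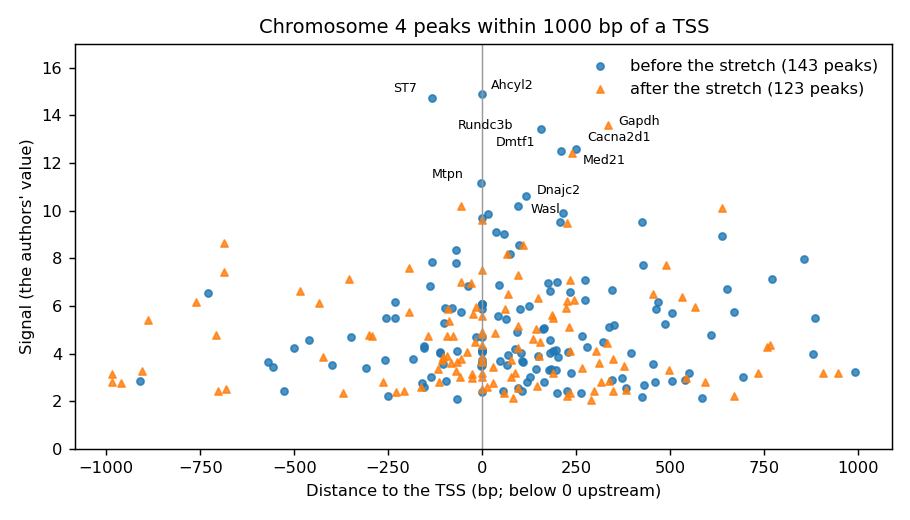
Signal of the 266 chromosome 4 peaks within 1000 bp of a TSS against their signed distance to it in bp, coloured by side of the stretch (143 before, 123 after). The 10 genes named beside their points, from Wasl at 10.2 to Ahcyl2 at 14.9, have these peaks within 400 bp of the TSS.

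Genes assigned many peaks could have few or none at the TSS. Fam50a was assigned 170 peaks, of which 99.4% lay outside the gene and 1 near its TSS, with a signal of 2.64. The table lists Fam50a on chromosomes 1 and 4, so its place on chromosome 4 is uncertain. Ndufa4 had 114, all outside the gene and none closer than 31088 bp. Nxph1, a secreted ligand of neurexins, had 111, with 1 over its TSS at a signal of 2.37. In all, 26 genes with 50 or more peaks held 2120 peaks, or 27.7% of the chromosome, while 203 genes had 1 peak each.

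The highest peaks of the table on chromosome 4 lay away from TSSs. The first, with a signal of 43.4 from 214315523 to 214315578, lay in intron 3 of March8, a ubiquitin ligase gene, and 41.6 kb from a site in the same gene that all 4 lists share. The table assigned it to the neighbouring gene Alox5, which encodes the 5-lipoxygenase of leukotriene synthesis. The second, also 43.4, lay from 209767048 to 209767103 in intergenic sequence 18.1 kb downstream of the TSS of Hrh1, the histamine H1 receptor gene. A further Hrh1 peak of 14.1 stood 2.28 kb away. A peak of 26.6 that started at 6358453 lay in intron 2 of Galntl5 and was assigned to Galnt11, whose TSS it lies upstream of. Both genes belong to a family of enzymes that attach sugars to proteins. The intergenic peaks of 16.0 near Cct8l1 and 15.5 near Asun completed the 5 highest.

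Atp2b2, the calcium pump gene, had 4 assigned peaks and none near its TSS. The closest lay 40371 bp upstream, and the highest, in intron 18 with a signal of 3.32, lay 613 kb from the highest Hrh1 peak. Of the 7 listed calcium genes with a peak on chromosome 4, Atp2b2 among them, 3 had a peak near the TSS: Cacna2d1, Calu and Camk1. Their share of 42.9% stood beside 24.9% of all listed chromosome 4 genes and 43.9% of all listed autosomal genes. Calu, which encodes calumenin, a calcium-binding protein of the secretory pathway, had peaks of 3.42 and 3.38, and Camk1, a calmodulin-dependent kinase gene, had 1 of 2.99. Cacna1c, the pore of an L-type calcium channel, had 8 assigned peaks, and Itpr1 and Itpr2, receptors that release stored calcium, had 1 and 2, all farther than 1000 bp from the TSS.

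The 5 glutamate receptor genes had 251 peaks, and only Grm3 had any near the TSS, with a signal of 4.02. The 12 adhesion and guidance genes with a peak had 478, among them Magi2 with 83, Cntn3 with 78, Sema3d with 69 and Cntn6 with 64. Only Magi2, a synaptic scaffold gene, had a peak near the TSS, with a signal of 2.43. Of 11 genes of amine and GABA transport, synapses and neuropeptides, 2 had such a peak: Dpp6, a potassium channel partner, with 5.89, and Adcyap1r1, the PACAP receptor, with 3.88. Tac1, the substance P precursor gene, had 22 peaks, all beyond 1000 bp. None of the 5 potassium channel genes with a peak, including Kcnd2 with 12, had a peak near the TSS. For comparison, 24.9% of all listed chromosome 4 genes and 43.9% of all listed autosomal genes had one.

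Growth and regulatory genes were near the chromosome's own share of 24.9%, which is below the 43.9% of all listed autosomal genes. Of 13 receptor, Ras and growth signalling genes, 3 had a peak near the TSS, among them Wnt16 with 8.94 and Shh with 4.02, both ligands of developmental signalling. The receptor genes Met and Ret, present in the table with 11 and 1 peaks, had none there. Of 16 transcription factor and chromatin genes, 3 did: Ezh2, the Polycomb methyltransferase gene, with 3.74, Mxd1 with 2.78 and Creb3l2 with 2.57. Atoh1, which specifies cerebellar granule cell precursors, had 45 peaks and none there.

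Of 11 cell cycle and survival genes listed, 5 had no assigned peak and 1 lay on another chromosome. Of the 5 with a chromosome 4 peak, 4 had a peak near the TSS: Bid, a pro-apoptotic gene, with 6.15, Cdk6 with 4.19, Rad18 with 3.92 and Mad2l1, a spindle checkpoint gene, with 2.21. Of 10 metabolic genes listed, 5 had no assigned peak, and of the other 5, Gapdh and Bpgm had a peak near the TSS, with 13.6 and 3.55. In the Hox A cluster, which sets position along the body axis, 9 of 12 listed genes had no assigned peak at all. Hoxa13 and Evx1 had 2 and 3, none near the TSS. These lists are small, and 43.9% of all listed autosomal genes had a peak near the TSS.

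The receptor families were the longest lists and had few peaks near a TSS. Among all listed genes, 24.9% on chromosome 4 and 43.9% over the autosomes had a peak there. Of 93 vomeronasal, olfactory and taste receptor genes on chromosome 4, 77 of them after the stretch, 2 had a peak near the TSS, Vom1r90 with 3.13 and Vom1r78 with 2.52. Together they were assigned 503 peaks. Of 44 lectin-like receptor genes of the Klr, Ly49 and Clec families, 43 of them after the stretch, 2 did, Klrb1a with 3.86 and Ly49i7 with 2.43, among 233 peaks. Members of these families share sequence, so peaks assigned to any 1 member are uncertain, and the table draws Ly49i7 from 214021141 to 227922172, across other genes.

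Promoter sequence differed with the presence of a peak. RefSeq promoters on GRCr8 matched 694 of the 824 genes (84.2%), 176 with a peak near the TSS and 518 without. The CG count of the 300 bases had a median of 25 (quartiles 18 and 33) with a peak and 8 (2 and 20) without, and median G and C content was 63.7% and 51.8%. The GC box GGGCGG stood in 76.1% of promoters with a peak, in 34.7% of those without and in 34.9% of all 27457 rat promoters of the table. TATAAA stood in 7.39% of promoters with a peak and 18.5% of those without, against 14.3% of all. In the same order, the cAMP response element TGACGTCA stood in 11 of 176 (6.25%) and 8 of 518 (1.54%), against 1.91% of all, the CACGTG E-box in 7.95% and 5.98%, against 6.65%, and CCAAT in 38.1% and 36.7%, against 37.7%. All 5 motifs were searched on both strands, and a match of letters is a description of the window only. The difference in CG count and GC box was not particular to chromosome 4. On the other autosomes, where only 79.1% of genes matched, the median CG count was 24 with a peak and 8.5 without. The GC box stood in 70.0% and 37.3% of these promoters. TGACGTCA stood in 3.51% and 2.01% of them, a smaller contrast than on chromosome 4, and CACGTG in 10.6% and 6.47%, a larger one.

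The other lists had few peaks on chromosome 4, and all of these overlapped a peak of the α1ACT 1804 list. The α1ACT M2 list had 3 of its 74 autosomal peaks there, or 4.05% (0.844 to 11.4). The empty-vector 1804 list had 7 of 259, or 2.70% (1.09 to 5.49), and the empty-vector M2 list 5 of 235, or 2.13% (0.694 to 4.90). Chromosome 4 made up 7.02% of autosomal length outside the stretches, above both empty-vector intervals and inside that of α1ACT M2. By density outside the stretches it was 8th lowest in the α1ACT M2 list, 4th in the empty-vector 1804 list and 3rd in the empty-vector M2 list. Over the whole length it was 7th lowest in the α1ACT M2 list, 3rd in the empty-vector 1804 list and the lowest in the empty-vector M2 list, on these small counts.

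These peaks fell on 7 sites, 2 before the stretch and 5 after it. The scaling of signal between libraries is not stated, so the values are given side by side only. The site at 214273913, within March8, had signals of 315 in α1ACT 1804, 124 in α1ACT M2, 160 in empty-vector 1804 and 162 in empty-vector M2. The site at 145459432, 222 kb from Mir148a, had 238, 125, 168 and 158 in the same libraries, and the site at 246164649, within Ccdc91, had 180, 81.2, 59.3 and 86.7. The sites at 213649943 and 229927853 were in 3 lists, without α1ACT M2: the first had 51.0 in α1ACT 1804, 68.8 in empty-vector 1804 and 103 in empty-vector M2, and the second 22.9, 25.1 and 29.7. The site at 17460156, within Sema3e, had 9.42 in α1ACT 1804 and 17.6 in empty-vector 1804, and that at 59547895 had 7.23 and 14.1. The 4 highest peaks of the α1ACT 1804 list on chromosome 4 were all among these shared sites. Of the 7677 chromosome 4 peaks of that list, 33 are missing from the annotated table: the 7 that overlap an empty-vector peak and 26 at the chromosome ends, 3 before the first annotated peak and 23 after the last.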

How the data were processed

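The authors deposited 4 peak lists, 1 per precipitated library, with an annotated table of α1ACT 1804 peaks. Per the submitters' processing notes, FastQC 0.11.2, BWA 0.7.5a, DiffBind, ChIPseeker, HOMER and the rat build rn5 were used, with no role stated. The names of the deposited lists carry that of the spp peak caller. Its settings, and whether inputs were used, are not stated in the labels or files. The signal column is the authors' own deposited value per peak. The lowest −log10 q-value deposited by the authors on chromosome 4 was 1.33 in the α1ACT 1804 list, and all peaks were 56 bp wide. The authors' TSS distance is taken from an edge of the peak that varies with its side.

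With Python 3.11.15, pandas 2.3.3 and scipy 1.17.1, signals were joined to the table by position, and peaks were counted per chromosome, in windows of 1 Mb and in steps of 10 Mb. Peaks of different lists that shared 1 bp or more were taken as overlapping. A peak within 1000 bp of the TSS in the table was called near it. Intervals are exact at the 0.95 level (Poisson for densities, Clopper-Pearson for shares) and cover counting error only. Promoter sequences are RefSeq's on GRCr8, and the promoters of the other autosomes are given only in brief because under 80% of their genes matched. The counting steps were tested on simulated data. No test between conditions is possible with 1 library per group, and depth is unknown.

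The chromosome, gene lists and settings were chosen with earlier results of these data known. Named genes were the 10 with the highest peak near the TSS, the 5 with the most peaks, the 5 highest peaks, the leading genes of the 5 densest windows, the genes beside the 3 longest gaps, the 2 highest members near the TSS of each list, Atp2b2 and every chromosome 4 peak of the other lists. Other genes, among them list members without a peak near the TSS, the genes with 3 or more such peaks, those of the sparsest windows, those between Tmem178b and Prss37 and further list members such as Shh, were named after their values were seen. A few genes under this rule are left out here. Alternatives were signal limits, merged peaks, filled windows of other sizes, other TSS distances and the full list.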

Additional observations from a re-analysis of the deposited data

How the results depend on the processing

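Chromosome 4 kept the lowest density of the 20 autosomes when all peaks of the α1ACT 1804 list were counted, with peaks at or above the median signal (14.1 per Mb), with the upper 10% of signal (2.21 per Mb) and with peaks within 500 bp of each other merged (24.4 per Mb). It was second lowest, behind chromosome 5, in windows holding at least 1 peak, with 41.5 per Mb in windows of 1 Mb, 41.8 in windows of 500 kb and 41.1 in windows of 2 Mb, and at 41.7 without peak-free stretches, which was chosen after seeing the data. The share near a TSS was 2.93% within 500 bp and 5.17% within 3000 bp, 5.88% at or above the median signal and 17.3% in the upper 10% of signal. It ranked 3rd lowest within 500 or 1000 bp, and 5th lowest within 3000 bp or, within 1000 bp, in the upper 10% of signal. The distal intergenic share was 69.9% at or above the median signal and 56.5% in the upper 10%. The share of genes with a peak near the TSS was 29.3% without receptor families, also chosen after seeing the data, and chromosome 5 was then lower. The share of the chromosome in peak-free stretches was 27.0% with stretches of 500 kb or more, against 26.3%. The median signal moved by less than the quartile spread and the merged shares by less than counting error. Beyond what each setting counts, the cause of these shifts was not tested. No paired analysis was possible because each group holds 1 library. Leaving out a replicate was not possible for the same reason, and unknown depth limits every density.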

Other observations

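The peak-free stretches were set beside their distance from the start of the chromosome. On chromosome 4 the stretch began 68.0 Mb from the start and was 65.2 Mb long, a ratio of length to distance of 0.959. On 8 of the 13 autosomes with a stretch of 1 Mb or more, chromosome 4 among them, the ratio lay between 0.931 and 1.05, including 0.934 on chromosome 2, 0.958 on chromosome 19 and 1.00 on chromosome 5. On the other 5 it ran from 1.17 to 2.11. Each of the 13 autosomes had a single such stretch.

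Peaks assigned to receptor families filled whole windows of chromosome 4. Besides the window around Vom1r72, all 29 peaks from 213000001 to 214000000 were assigned to such genes, as were 44 of 46 from 1000001 to 2000000, 44 of 46 from 212000001 to 213000000 and 55 of 62 from 184000001 to 185000000.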
